A study of Rattus norvegicus with 4 samples.

Results

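The acute phase proteins described here are 8 plasma proteins of the liver other than serpins: A2m, C3, Cp, Crp, Fgg, Itih3, Lbp and Orm1. Their probes were taken by gene symbol alone, as all probes of the array whose platform annotation gives exactly 1 symbol and whose symbol is one of the 8, and the rule itself uses no measured value, although the 8 genes were chosen with earlier results of these data known. This gave 13 of the 1936 probes, with 2 probes for each of 5 genes (C3, Cp, Crp, Fgg and Itih3) and 1 probe for each of A2m, Lbp and Orm1.

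The study asked which liver genes respond within 1 h of closing the common bile duct. Male Sprague-Dawley rats of 250 to 300 g had the duct tied between liver and intestine, or had it exposed but not tied (sham), both under ether. No age and no genetic change is named for either group. Per the labels' protocols, animals were killed in groups of 3 and the RNA of their right lateral liver lobes was mixed, so each hybridised sample is a pool. Each of 4 arrays compared ligated with sham RNA directly. On arrays 1 and 3 Cy5 marked the ligated RNA, and on arrays 2 and 4 Cy3 did.

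Acute phase proteins are secreted by hepatocytes, and their plasma levels move during inflammation and after surgery. Interleukin-6 acting through Stat3, and interleukin-1 and tumour necrosis factor acting through NF-κB and C/EBP factors, drive their transcription. In the rat, A2m and Orm1 are strong responders, whereas Crp circulates at a high resting level and responds weakly, unlike in humans. Fibrinogen, ceruloplasmin and C3 are known as moderate responders. A sham operation is itself surgery, so the ratio compares ligation with surgery, not with an unoperated liver.

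Each value is 1 log ratio per probe and array, taken here as ligated over sham, so that above 0 means more RNA after ligation. The labels list sham as channel 1 and ligated as channel 2 without saying which was divided by which. All directions below turn if the ratio ran the other way. If every array instead held Cy5 over Cy3, the operation and the dye would trade places, and Crp probe 253 would have 1.27 and Cp probe 1862 0.57 on centred values. The base of the log is not known, so values stay on the deposited log scale. Such a ratio holds no level of a gene, and in bulk liver RNA fewer cells of a type and less RNA per cell cannot be told apart. Whether the arrays share RNA extracts is not stated, and p-values therefore reflect only how these hybridisations of pooled RNA vary, which may be technical.

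RefSeq upstream windows (250 bases before the transcript start, GRCr8) are shown for the 3 genes whose window ends where the annotated gene starts. A table entry was found for 6 of the 8 genes, and A2m and Lbp had none. The windows are shown because the promoters of these genes are where Stat3, C/EBP and NF-κB are known to act. Capitals mark matches, on either strand, to TTGCNNAA (C/EBP) or to GGG and CC with 5 bases of any kind between (NF-κB). TTCNNNGAA (Stat3) was also searched and has no match in any of the 6 windows. Crp lies at chr13:87693812-87694061 on the plus strand, Orm1 at chr5:81788259-81788508 on the plus strand and C3 at chr9:2201340-2201589 on the minus strand, each written 5′ to 3′.
Crp: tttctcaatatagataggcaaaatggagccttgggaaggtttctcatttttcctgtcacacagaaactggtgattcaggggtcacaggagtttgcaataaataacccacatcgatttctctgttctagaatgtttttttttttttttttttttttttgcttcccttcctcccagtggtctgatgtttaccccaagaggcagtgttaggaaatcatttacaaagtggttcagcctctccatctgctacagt
Orm1: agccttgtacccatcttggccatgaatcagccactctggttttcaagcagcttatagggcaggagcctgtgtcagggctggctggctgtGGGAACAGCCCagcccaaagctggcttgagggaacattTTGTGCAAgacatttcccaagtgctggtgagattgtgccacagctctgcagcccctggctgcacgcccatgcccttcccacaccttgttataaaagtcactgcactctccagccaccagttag
C3: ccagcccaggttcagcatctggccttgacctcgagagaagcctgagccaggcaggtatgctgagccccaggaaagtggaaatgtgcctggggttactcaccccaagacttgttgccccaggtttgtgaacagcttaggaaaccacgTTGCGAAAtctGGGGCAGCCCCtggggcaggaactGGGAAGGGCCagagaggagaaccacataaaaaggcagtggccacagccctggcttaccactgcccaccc

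The C/EBP letters begin 123 bases before the Orm1 start and 104 bases before the C3 start, and the one in Cp begins 72 bases before the Cp start used in the table. NF-κB letters lie 161 to 151 bases before the Orm1 start, where 2 overlapping matches run together. In C3 they lie at 93 to 83 bases, again as 2 overlapping matches, and at 69 to 60 bases. The Fgg window, which does not end at the annotated gene start, holds 2 overlapping NF-κB matches. They lie from 211 to 201 bases before the transcript start used for it. Crp and Itih3 have no match to any of the 3 motifs in these windows. Over 33469 rat windows of the same length, 9.22% hold the C/EBP letters, 42.3% the NF-κB letters and 7.67% the Stat3 letters. A match is a string of letters and not a shown binding site.

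The dye moved most probes more than the operation did. Median deposited ratios of arrays 1 to 4 were -0.88, 0.75, -0.73 and 0.87. Each probe's dye contrast, the mean of its values with arrays 2 and 4 turned in sign, measures how Cy5 compared with Cy3 whatever the sample. The data are therefore given in 2 forms. In the first, each array was centred on its median and limma was fitted with an operation and a dye term. In the second, a smooth curve of each array's values on the dye contrast, drawn separately within each of 16 blocks of 121 consecutive probe numbers, was removed before the same fit. Values of the second form are called block-corrected. The curve takes out each probe's own dye contrast, so its smaller errors (median SE 0.037, against 0.084 on centred values) leave out the uncertainty of the curve.

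**Figure D1:**
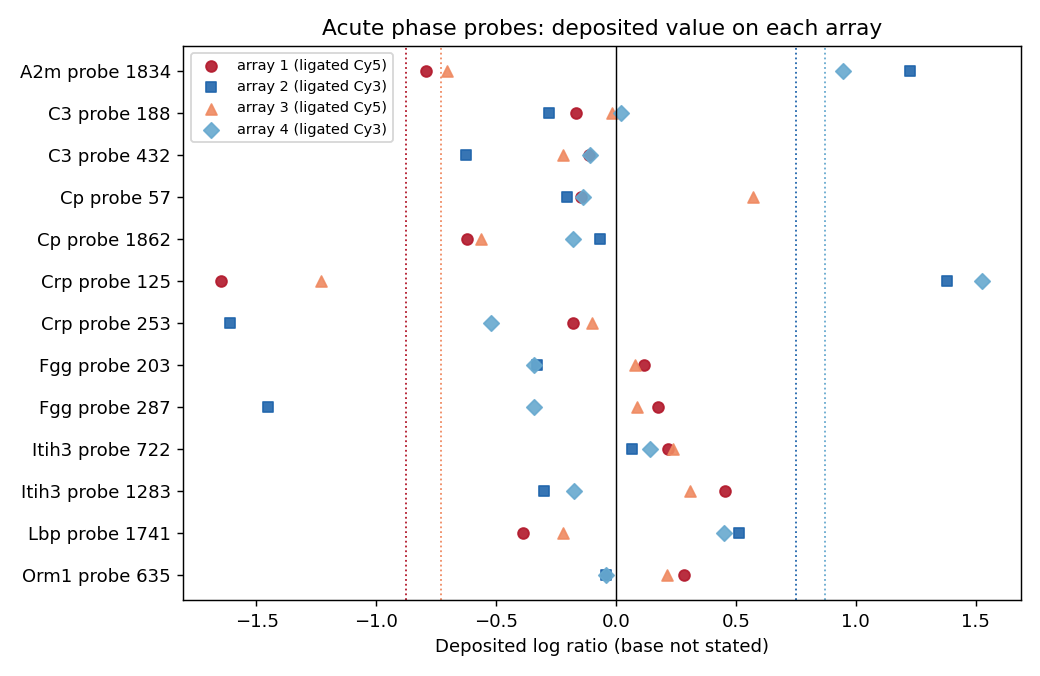
Deposited log ratio (horizontal axis, base not stated) of the 13 acute phase probes on each of 4 arrays, with dotted lines at the median of all 1936 probes on each array in the same colour. Most acute phase probes sit near 0 on every array, away from the array medians, whereas A2m probe 1834 and Crp probe 125 lie near or beyond those medians.

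The acute phase probes differ from most of the array in their dye contrast. It was above 0 for 9 of the 13, against 17.7% of all probes (342 of 1936), and their median was 0.10 against -0.81 over all probes. The range was wide, from -1.45 at Crp probe 125 to 0.51 at Fgg probe 287, which had the highest percentile of the members (99.9). The other acute phase and transport proteins listed below had similar medians, 0.10 and 0.09. The cytokine and transcription factor genes that regulate them had a median of -0.76. Dye contrast and spot brightness could not be set against each other, since no intensities were used here, and the cause of the difference was not tested.

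On centred values 4 of the 13 probes fell and 0 rose. They were Crp probe 253, Fgg probe 287, Cp probe 1862 and C3 probe 432. The share that fell was 30.8%, against a background of 4.8% of all probes that fell and 0.93% that rose (5.73% in either direction). Of the 342 probes with a dye contrast above 0, 12.3% fell and 0.585% rose, and of the 9 members with such a contrast 3 fell. The split depends on how the values are read and scaled. In the Cy5 over Cy3 reading 11 of the 13 rose and 1 fell, where 816 of all probes rose and 783 fell. Over all probes 18 rose and 93 fell on centred values, but 3 rose and 0 fell as deposited, 7 rose and 0 fell after 1 dye curve per array, and 9 rose and 3 fell with quantile normalization. The median estimate of the 13 was 0.00 against -0.02 over all probes, with 7 above 0 and 6 below. The calls were unevenly spread over the probe order. The probes of blocks 3 and 4 had 29.3% lower calls against 1.3% elsewhere, and 3 of the 4 probes that fell (Crp 253, Fgg 287 and C3 432) are all the members in those blocks. Outside them, 1 of 10 fell, Cp probe 1862.

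**Figure D2:**
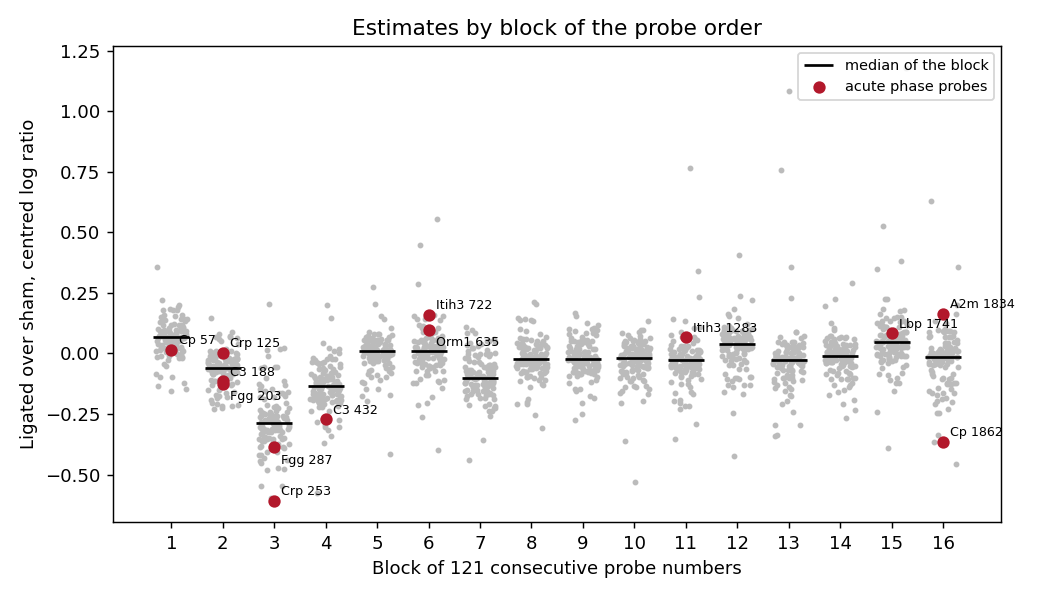
Centred estimate of ligated over sham (vertical axis, log ratio) for all 1936 probes by block of 121 consecutive probe numbers (horizontal axis), with the block median as a bar and the acute phase probes in red. The medians of blocks 3 and 4 are -0.29 and -0.14, and Crp probe 253 is the lowest point of the array, whereas Cp probe 1862 lies far below the median of block 16.

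With block correction, 2 probes fell (Cp 1862 and Crp 253) and 4 rose (Itih3 722, Itih3 1283, Orm1 635 and A2m 1834). Over all probes 3.36% fell and 3.67% rose after this curve, against 15.4% and 30.8% of the members. Among the 342 probes with a dye contrast above 0, 9.94% fell and 7.02% rose with block correction, and of the 9 such members 1 fell and 3 rose. All 4 deviations from the curve were above 0 at 5 members and below 0 at 3, where 19.1% and 17% of all probes had such a pattern. Cp 1862 and Crp 253 were thus the members that passed in both forms of the data with the same sign. Neither passed as deposited (Crp 253 -0.60, adjusted p = 0.464; Cp 1862 -0.36, adjusted p = 0.133), after 1 dye curve per array (-0.49 and -0.33, adjusted p = 0.524 and 0.124) or without a dye term (adjusted p = 1.00 for both). Cp 1862 did not pass with quantile normalization either (-0.33, adjusted p = 0.0964). Fgg 287 and C3 432 passed in none of these 4 settings (adjusted p from 0.538 to 1.00). The median of the 13 was again near 0, at 0.01.

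**Figure D3:**
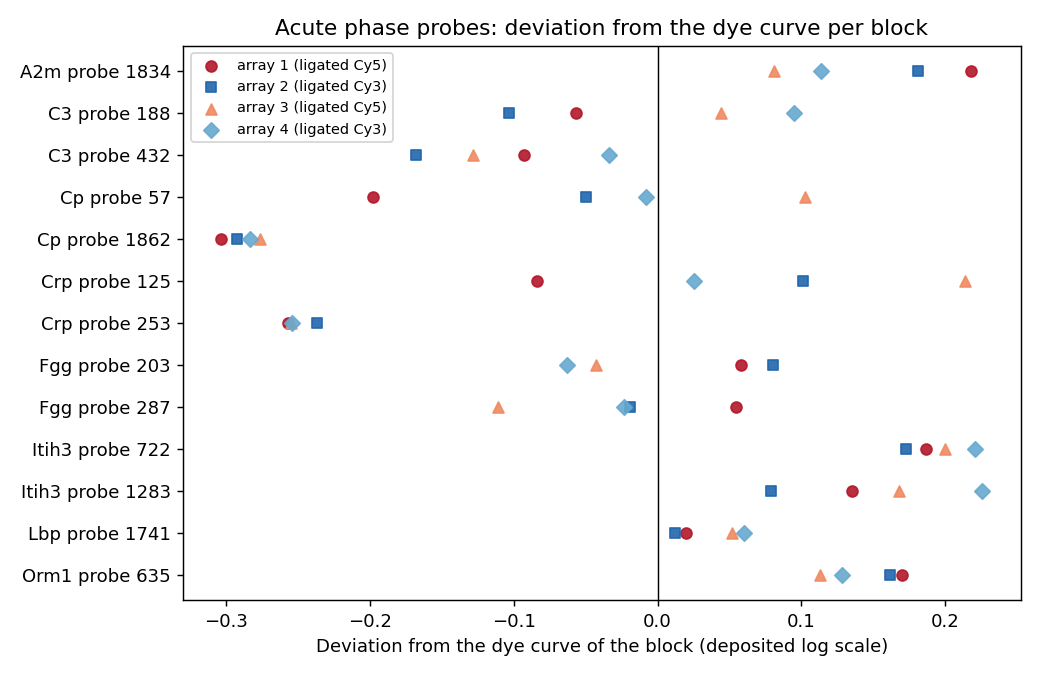
Deviation of each acute phase probe from the dye curve of its block (horizontal axis, deposited log scale), a point for each of 4 arrays. Cp probe 1862 and Crp probe 253 lie left of 0 on every array with little spread, and the probes of Itih3, Orm1 and A2m lie right of 0 on every array. The curve itself brings the arrays of either dye orientation together.

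Among the protease inhibitors and matrix proteins, A2m encodes alpha-2-macroglobulin, which traps proteases by enclosing them. Probe 1834 read -0.79, 1.23, -0.71 and 0.95 on arrays 1 to 4. The values part by dye, below 0 where the ligated RNA carried Cy5 and above 0 where it carried Cy3. After centring they were 0.08, 0.47, 0.02 and 0.08, all above 0, with array 2 apart from the rest. The estimate was 0.16 ± 0.09 (SE, n = 4 arrays; limma adjusted p = 0.370), and 0.065 without array 2. Its deviations from the block curve were 0.22, 0.18, 0.08 and 0.11, and it rose by 0.15 ± 0.04 (adjusted p = 0.0409). That call was narrow, and ended without array 1, 2 or 4 (0.11, 0.13 and 0.17, adjusted p = 0.281, 0.182 and 0.181). Wherever an array is left out of block-corrected values, the dye contrast and the curves are taken anew from the other 3 arrays. Without array 4 the centred estimate passed (0.26 ± 0.09, adjusted p = 0.0213). With an array left out, all member probes shared the same SE on centred values (0.086 without array 2 or 4, 0.144 without array 1 or 3). Block-corrected fits without array 1 or 3 did so too (0.056). Passing in those fits follows the size of the estimate and not the probe's own spread.

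Itih3 encodes a heavy chain of the inter-alpha-trypsin inhibitors, which bind hyaluronan in the extracellular matrix. Probe 722 read 0.21, 0.06, 0.24 and 0.14 and was the only member above 0 on all 4 arrays as deposited, a pattern held by 0.981% of all probes. Probe 1283 read 0.45, -0.30, 0.31 and -0.18, above 0 with Cy5 on the ligated RNA and below 0 with Cy3. On centred values the estimates were 0.16 ± 0.08 and 0.07 ± 0.08 (adjusted p = 0.391 and 0.935), and neither passed. Block-corrected, both rose, probe 722 by 0.19 ± 0.03 and probe 1283 by 0.15 ± 0.04 (adjusted p = 0.00574 and 0.0358). The increase at probe 722 corresponds to 1.14-fold if the base is 2 and to 1.57-fold if it is 10. The probes differed by 0.04 after the curve (95% interval -0.07 to 0.16, adjusted p = 0.738). Probe 722 no longer passed without array 4 (0.19, adjusted p = 0.103), and probe 1283 no longer passed without array 1, 3 or 4 (0.16, 0.14 and 0.12, adjusted p = 0.0577, 0.152 and 0.259).

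Among the proteins that recognise microbes and damaged cells, Crp encodes C-reactive protein, a pentraxin that binds phosphocholine and starts the complement cascade. Probe 253 read -0.18, -1.61, -0.10 and -0.52, below 0 on every array. The value on array 2 was the lowest of all 1936 probes there, and that on array 4 ranked 3 from the bottom. It fell by 0.61 ± 0.09 on centred values (adjusted p = 9.69e-07), the lowest estimate of its block and of the array. That is 1.52-fold lower if the base is 2 and 4.05-fold lower if it is 10. The SE on centred values is drawn mostly from all probes and not from this probe's own spread. As deposited, the estimate was -0.60 ± 0.19 (limma adjusted p = 0.464). A robust prior on centred values gave an SE of 0.11 (adjusted p = 0.00293). Block 3, which holds Crp probe 253, had a median deviation from the array-wide dye curve of -0.83 on array 2 and 0.28 on array 4. Without array 2 the centred estimate was -0.36 ± 0.09 (adjusted p = 0.00192), and it passed without each of the other arrays too, between -0.85 and -0.59. Each of those fits gave all member probes the same SE, so the passes do not show how alike the arrays were at this probe.

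From the curve of its block Crp probe 253 deviated by -0.26, -0.24, -0.26 and -0.25 on arrays 1 to 4. Likeness between the Cy5 and Cy3 arrays is set by the curve. The probe fell by 0.25 ± 0.03 (adjusted p = 0.00106), 1.19-fold if the base is 2 and 1.78-fold if it is 10. The call was lost without array 4 (-0.24, adjusted p = 0.0534) and passed without array 1, 2 or 3, at -0.27 to -0.25 (adjusted p from 0.000151 to 0.00191). As its dye contrast has a percentile of 99.8, the curve there rests on few probes. The second Crp probe, 125, behaved otherwise, with -1.65, 1.38, -1.23 and 1.53 on the 4 arrays, which part by dye. Its estimate was 0.00 ± 0.08 on centred values and 0.06 ± 0.05 after the curve (adjusted p = 0.991 and 0.523).

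The difference between the Crp probes was itself tested, in a fit over 699 pairs of probes that share a symbol. Probe 125 exceeded probe 253 by 0.61 on centred values (95% interval 0.20 to 1.02), which did not pass over all pairs (adjusted p = 0.733). On block-corrected values the difference was 0.31 (95% interval 0.18 to 0.45) and passed (adjusted p = 0.0490), where 1% of all pairs (7 of 699) did. Their dye contrasts, -1.45 and 0.46, lay further apart than those of any other pair. The probes are cDNA clones annotated to the same gene, and these values do not say which of them reports Crp RNA.

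**Figure D4:**
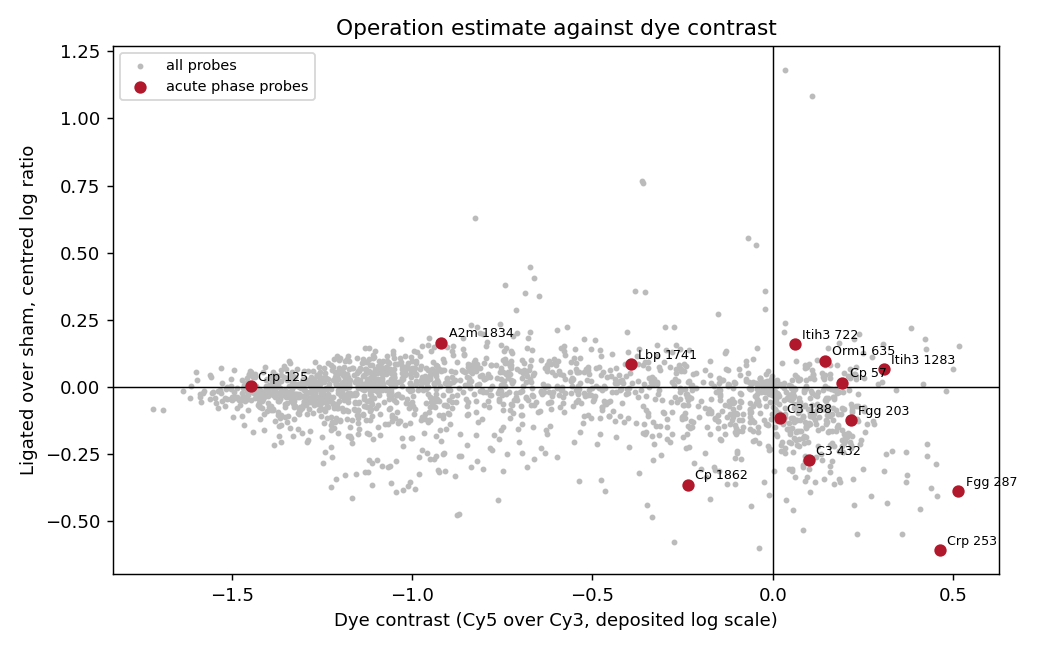
Centred estimate of ligated over sham (vertical axis, log ratio) against the dye contrast (horizontal axis, Cy5 over Cy3 on the deposited log scale), grey for all 1936 probes and red for the acute phase probes. Of the 13, 9 lie right of 0, and the Crp probes stand at opposite ends of the horizontal axis.

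C3, the central component of complement, is cleaved to mark targets for uptake. Probe 188 read -0.17, -0.28, -0.02 and 0.02, and probe 432 read -0.11, -0.63, -0.22 and -0.11. Both lay near or below 0 on every array, with array 2 the lowest. Probe 432, in block 4, fell by 0.27 ± 0.09 on centred values (adjusted p = 0.0405), while probe 188, in block 2, had -0.12 ± 0.08 (adjusted p = 0.677). The block-corrected estimates were -0.11 ± 0.04 and -0.01 ± 0.04, and neither passed (adjusted p = 0.128 and 0.961). The call at probe 432 was also lost without array 1, 2 or 3 (-0.34, -0.17 and -0.21, adjusted p = 0.421, 0.457 and 0.999). The probes differed by 0.16 on centred values (95% interval -0.07 to 0.38, adjusted p = 0.750).

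Lbp encodes the lipopolysaccharide-binding protein, which hands bacterial lipopolysaccharide to CD14. Probe 1741 read -0.39, 0.51, -0.22 and 0.45, parting by dye. Its estimate was 0.08 ± 0.08 on centred values and 0.04 ± 0.03 when block-corrected (adjusted p = 0.873 and 0.650), so no change was detected. The 95% interval after the curve ran from -0.04 to 0.11, although all 4 deviations were above 0.

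Fgg encodes the gamma chain of fibrinogen, the precursor of the fibrin clot. Probe 203 read 0.12, -0.33, 0.08 and -0.34, and probe 287 read 0.18, -1.45, 0.09 and -0.34. The probes were close on arrays 1, 3 and 4 and parted on array 2, where probe 287 ranked 3 from the bottom of all probes. Probe 287, in block 3 like Crp 253, fell by 0.39 ± 0.09 on centred values (adjusted p = 0.00361). Without array 2 it had -0.14 ± 0.09 (adjusted p = 0.664), and without array 1 or 3 it did not pass either (-0.45 and -0.33, adjusted p = 0.124 and 0.956). Block-corrected, it had -0.02 ± 0.04 and probe 203 had 0.01 ± 0.04 (adjusted p = 0.808 and 0.941). The probes then differed by 0.03 (95% interval -0.09 to 0.15). On centred values probe 203 had -0.12 ± 0.08 (adjusted p = 0.621).

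Among the carrier proteins, Cp encodes ceruloplasmin, the copper-bearing ferroxidase of plasma. Probe 1862 read -0.62, -0.07, -0.56 and -0.18, below 0 on every array, as 5.94% of all probes were. It fell by 0.36 ± 0.08 on centred values (adjusted p = 0.00243), which is 1.29-fold lower if the base is 2 and 2.31-fold lower if it is 10. Block 16, where it lies, had a median estimate of -0.02, and it ranked 2 from the bottom of the 121 probes there. Deviations from the block curve were -0.30, -0.29, -0.28 and -0.28, and it fell by 0.29 ± 0.03 (adjusted p = 0.000455). The likeness of these deviations over the dye swap again comes from the curve. Without each array in turn the estimate after the curve stayed between -0.30 and -0.28 and passed (adjusted p from 9.08e-06 to 0.0332). In the fits without array 1 or 3 all member probes shared an SE of 0.056, so passing there followed the size of the estimate. On centred values the call ended without array 1 or 3 (-0.39 and -0.34, adjusted p = 0.234 and 0.844), in fits where every probe had an SE of 0.144.

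The other ceruloplasmin probe, 57, read -0.15, -0.21, 0.57 and -0.14. Array 3 was high and the other arrays lay slightly below 0. Its estimate was 0.02 ± 0.09 on centred values and -0.04 ± 0.05 after the curve (adjusted p = 0.991 and 0.749). Probe 57 exceeded probe 1862 by 0.38 on centred values (95% interval 0.07 to 0.69) and by 0.25 after the curve (95% interval 0.12 to 0.38). Neither difference passed over all pairs (adjusted p = 0.733 and 0.0981).

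Orm1 encodes alpha-1-acid glycoprotein, a lipocalin that carries basic and steroid drugs. Probe 635 read 0.28, -0.04, 0.21 and -0.04, above 0 on the Cy5 arrays and just below 0 on the others. Its estimate was 0.10 ± 0.08 on centred values (adjusted p = 0.796). From the block curve it deviated by 0.17, 0.16, 0.11 and 0.13 and rose by 0.14 ± 0.03 (adjusted p = 0.0336), a call that ended without any array (0.12 to 0.16, adjusted p from 0.0841 to 0.209).

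**Figure D5:**
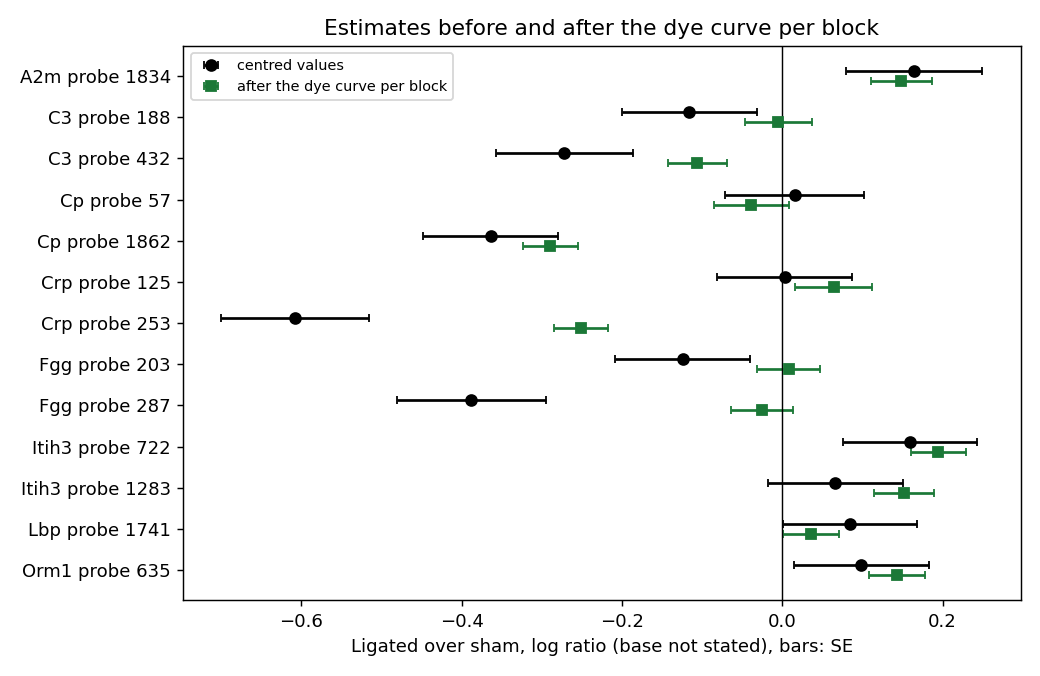
Estimate of ligated over sham with its SE (horizontal axis, log ratio, n = 4 arrays) for each acute phase probe, as circles on centred values and squares with block correction. Crp probe 253 and Cp probe 1862 stay below 0 in both, Fgg probe 287 moves from -0.39 to -0.02, and the probes of Itih3 and Orm1 lie slightly above 0 in both.

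The probes most like each member that passed were found by Euclidean distance over the 4 centred values. Those nearest to Crp 253 were Ldha, Sod1 and Fgg 287, all in block 3 (distances 0.363 to 0.467). Those nearest to Fgg 287 were Ctsb, Sod1 and Fth1, also in block 3, and those nearest to C3 432 were Gc, Cyp4f1 and Slc10a1, all in block 4. Cp 1862 had Cyp7a1, Pklr and Pfkfb1 nearest (0.208 to 0.285), from blocks 8, 16 and 10. Bcl7b was nearest to both Orm1 635 and Itih3 722. Csnk1g3 and Ccnd2 came next for Orm1, and Pgk1 and Orm1 itself for Itih3 722. Itih3 1283 was nearest to Cks1b, Cyp2e1 and Serping1, and A2m 1834 to Cdc16, Me1 and Sbf1. Probes of a block share their position in the probe order, and the dye moves all of the values that enter these distances.

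Of 47 further listed genes that rise in inflammation or belong to the same plasma cascades, 7 were measured by 11 probes, of which 4 fell and 0 rose on centred values, with a median of -0.23. They were the probes of Fn1, a matrix and plasma glycoprotein, and of Serpina3n, a protease inhibitor. Fn1 probe 1517 had -0.34 ± 0.08 and -0.27 ± 0.03 once block-corrected, and probe 298 in block 3 had -0.55 ± 0.09 and -0.22 ± 0.04. Serpina3n had -0.34 ± 0.08 and -0.39 ± 0.08 at its probes, and -0.27 ± 0.04 and -0.37 ± 0.04 after the curve. After the curve 5 of the 11 fell, Vtn probe 1278 (vitronectin) among them at -0.15 ± 0.04 (adjusted p = 0.0343). Vtn probe 1409 then had -0.09 ± 0.04 (adjusted p = 0.224). On centred values Serpina1, the antitrypsin gene, had -0.23 ± 0.08 at probe 1865 and -0.04 ± 0.08 at probe 1874 (adjusted p = 0.103 and 0.991). Timp1, a metalloprotease inhibitor, had 0.18 ± 0.08 (adjusted p = 0.272).

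Of 17 listed genes that decline in inflammation, 7 were measured by 11 probes. All 11 estimates were below 0, as were 60.3% of those of all probes, and 2 fell on centred values: Apoa4 probe 662 (-0.40 ± 0.08) and Gc probe 458 (-0.28 ± 0.09, in block 4). With block correction 2 fell, Apoa4 probe 662 (-0.37 ± 0.04) and Ttr, the thyroxine carrier transthyretin (-0.17 ± 0.04, adjusted p = 0.0293), while Gc 458 had -0.11 ± 0.04 (adjusted p = 0.120). Apoa4 is an apolipoprotein and Gc the vitamin D carrier. Apoa4 probe 459 had -0.19 ± 0.09 on centred values and -0.05 ± 0.04 after the curve (adjusted p = 0.256 and 0.542). In the fit over probe pairs it exceeded probe 662 by 0.21 on centred values, which did not pass (adjusted p = 0.743). After the curve the difference was 0.33 and passed (adjusted p = 0.0490). Gc probe 1637 had -0.13 ± 0.08 on centred values and -0.10 ± 0.03 after the curve (adjusted p = 0.575 and 0.133).

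Of 36 listed genes that act upstream of acute phase genes (cytokines, receptors and transcription factors), 14 were measured by 28 probes, with 0 higher and 1 lower on centred values and a median of -0.01. The probe that fell was probe 340 of Nr3c1, the glucocorticoid receptor, in block 3 (-0.35 ± 0.09, adjusted p = 0.00705), with a block-corrected -0.09 ± 0.05. Nr3c1 probes 217 and 1361 had -0.04 ± 0.08 and -0.13 ± 0.08 on centred values (adjusted p = 0.991 and 0.577). Block-corrected, 1 rose, Stat3 probe 723 (0.14 ± 0.04, adjusted p = 0.0336), while Stat3 probe 1418 had 0.02 ± 0.04. Stat3 is the factor that interleukin-6 activates. Cebpd, a C/EBP factor, had -0.11 ± 0.09 on centred values and 0.17 ± 0.05 after the curve (adjusted p = 0.756 and 0.0744). The interleukin-6 receptor chains Il6r and Il6st had 0.10 ± 0.09 and -0.04 ± 0.08, and neither passed in either form.

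Markers of other cell types were sparse on the array. None of 10 listed Kupffer cell and macrophage markers was measured. A single neutrophil marker gene was, S100a9 (0.02 and 0.15 at its probes), and Spp1 for cholangiocytes (0.10), and none of these 3 probes passed. Pf4, a platelet gene, had 0.14 at probe 78 and -0.30 at probe 292 in block 3, of which the latter passed on centred values only. Of 3 stellate cell and fibroblast probes 1 rose in both forms, Col1a1 probe 1306 (0.34 ± 0.08 and 0.36 ± 0.06). Col1a1 probe 1183 had 0.10 ± 0.08 and 0.11 ± 0.04 and passed in neither form (limma adjusted p = 0.812 and 0.113). The difference between these Col1a1 probes did not pass over all pairs either (adjusted p = 0.733 and 0.172). None of 3 endothelial probes passed. Among 13 probes of 6 hepatocyte genes, 1 fell on centred values, Cyp7a1 probe 889 (-0.31 ± 0.08), while after the curve 3 fell (Cyp7a1 at both probes and Ttr) and 1 rose, Cyp2e1 probe 1234 (0.15 ± 0.04). The other Cyp2e1 probes had -0.06 (probe 437) to 0.10 (probe 1639) after the curve, and none of them passed. The part of these cell types in the acute phase values was not tested.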

How the data were processed

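Liver RNA of ligated and sham-operated rats was hybridised in pairs to 4 2-colour cDNA arrays. The authors deposited 1 log ratio per probe and array, a score of unstated log base with 0 missing values. How background and normalization were handled is not stated in the labels, and the direction is read from the channel order in the labels. Array number limits the precision.

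Of 1936 probes, 1432 had a single symbol, of which 1429 matched a RefSeq gene ID (GRCr8), 19 had several symbols and 485 had none. Values were centred per array and fitted with an operation and a dye term in limma 3.58.1 (lmFit, then eBayes; R 4.3.3). P-values were Benjamini-Hochberg adjusted over all probes (threshold 0.05). The fit had 2 residual degrees of freedom per probe and a prior of 76.2 on centred values, 8.68 on block-corrected values and 2.60 as deposited. An SE on centred values therefore comes mostly from the spread of all probes and says little about a single probe's own spread. The block curve was a symmetric loess (span 0.75, degree 1) on the dye contrast. Probe pairs of a gene were fitted as differences within arrays.

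Every member probe is named. Of the other lists, genes with a passing probe and at most 2 further examples per list are named, as are the 3 nearest probes of each passing member. The members and lists were chosen with earlier results of these data known, and the block curve came from an earlier look at these values. An earlier rule asked for the Cy5 over Cy3 reading, which is kept as an alternative. The deposited array medians change sign with the dye of the ligated RNA (-0.88, 0.75, -0.73 and 0.87), which is no ground for that reading.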

Additional observations from a re-analysis of the deposited data

Results flagged for a closer look

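A2m probe 1834 had a centred value of 0.47 on array 2, apart from 0.02 to 0.08 on the other 3 arrays. The gap was 0.862 of the whole range, above Dixon's 95% limit for 4 values. About 1 in 20 groups of like values passes this limit by chance, and 13 probes were examined. That rate does not hold for all of them, since centred values can part by the dye of the ligated RNA. C3 188, for example, read -0.17, -0.28, -0.02 and 0.02 as deposited, but 0.71, -1.03, 0.71 and -0.85 after centring. A probe whose centred values part in this way can hardly show a single array apart.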

How the results depend on the processing

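On centred values 111 of all probes and 4 of the acute phase probes passed. The counts moved to 3 and 0 as deposited (176 and 5 at an unadjusted limma p under 0.05), to 1599 and 12 in the Cy5 over Cy3 reading (816 higher and 783 lower; 11 and 1), to 0 and 0 without a dye term (5 and 0 unadjusted), to 7 and 0 after a dye curve per array (174 and 6 unadjusted) and to 63 and 1 without blocks 3 and 4. They were 12 and 1 with quantile normalization. With the probes of a gene averaged, 40 of 958 genes and 1 of the 8 acute phase genes passed. All probes gave 62 with equal scaling and 67 with a robust prior, with 3 acute phase probes each. Leaving out 1 array gave 12 to 241 and 1 to 5. With block correction 136 and 6 passed, and 34 to 166 and 1 to 4 without an array. Of the settings added after seeing the data, Gaussian loess, a span of 0.5 and removal of block medians after a curve per array each left 5 acute phase probes, 3 higher and 2 lower. The rise lost was that of A2m 1834 with Gaussian loess and with the span of 0.5 (0.13 in both, adjusted p = 0.0782 and 0.0719). With block medians removed it was that of Orm1 635 (0.15, adjusted p = 0.0570). Of 699 probe pairs, 0 passed on centred values (42 unadjusted), 347 in the Cy5 over Cy3 reading, 7 with block correction, and 0 to 113 without an array (113 without array 4).

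Cy5 over Cy3 turned A2m (-0.11), C3 (0.83 and 0.91), Cp 1862 (0.57), Crp (-0.64 at 125 and 1.27 at 253) and Fgg (1.02 and 1.32). The other sign changes were at estimates that did not pass, except the average of both Crp probes (-0.30, adjusted p = 0.0401). With block correction the Crp average had -0.09 ± 0.03 and did not pass (limma adjusted p = 0.175). Block-corrected gene averages passed for Cp (-0.16), Itih3 (0.17) and Orm1 (0.14), and not for A2m, C3, Fgg or Lbp. On centred values Cp 57 had -0.038 with block correction, -0.17 with probes averaged and -0.13 to 0.16 without an array. Crp 125 had -0.064 to 0.070 and Itih3 1283 -0.0070 to 0.14 without an array, and Fgg 203 had 0.0079 with block correction. On block-corrected values Cp 57 had 0.014 with block medians. Without an array C3 188 had -0.045 to 0.040, Cp 57 -0.12 to 0.017, Crp 125 -0.0023 to 0.14, Fgg 203 -0.026 to 0.043 and Fgg 287 -0.081 to 0.017. The cause of these changes was not tested. Each array sets ligated against sham RNA directly, so its ratio is already a paired value, and no further pairing of arrays was used. Signal over background was not used here.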
